A study of Mus musculus with 12 samples.

Results

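The 10 genes described here encode the activin ligand subunits INHBA and INHBB, the distant family member GDF15, the follistatin family proteins FST, FSTL3 and FSTL1, and the receptors ACVR1, ACVR1B, ACVR2A and ACVR2B. They were chosen by symbol as the activin, follistatin and activin receptor genes among the 21556 genes of the count table, and all 10 were found in it. RNA was sequenced from primary fibroblasts grown from the abdominal skin of wild-type mice (WT, strain C57BL/6) and of mice with a targeted Nox4 allele (Nox4 KO, B6.129-Nox4tm1Kkr/J). Nox4 encodes NADPH oxidase 4, an enzyme that makes reactive oxygen species. Cells of all groups were plated and then starved, and were either given TGF-β2 (10 ng/ml for 24 h) or left without it, which gave 4 groups of 3 libraries: WT control, WT TGF-β2, Nox4 KO control and Nox4 KO TGF-β2. The deletion is carried by every cell of the animal, WT and Nox4 KO mice were bred as separate litters, and the cultures had been passaged before use. The age of the animals behind these cultures and whether each library came from a different animal are not given in the sources used here, so the p-values measure the spread between these libraries, which may in part be technical.

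Activins are dimers of inhibin beta subunits, with activin A made of INHBA and activin B of INHBB. They bind a type II receptor (ACVR2A or ACVR2B), which then activates the type I receptor ACVR1B and the transcription factors SMAD2 and SMAD3, the same pair that TGF-β uses. ACVR1 is a type I receptor of the bone morphogenetic protein (BMP) branch, which acts on SMAD1, SMAD5 and SMAD9, and it can also bind activins. Follistatin (FST) and follistatin-like 3 (FSTL3) wrap around activin outside the cell and block its binding to the receptors, whereas FSTL1 shares a follistatin domain but is a more distant relative. GDF15 signals through another receptor pair (GFRAL and RET) and is best known as a stress-induced hormone. In skin, activin A is known for its part in wound repair and scarring.

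The promoters of 3 members are shown because the results turn on their opposite responses: Inhba and Inhbb encode the alternative subunits of activin, and Fstl3 was the antagonist that rose with TGF-β2. The sequences are from RefSeq (GRCm38.p6), run 5′ to 3′ on the strand of the gene and end before its first annotated exon base. Capitals mark matches to the motifs searched.
Inhba, chr13:16011601-16011850, plus strand: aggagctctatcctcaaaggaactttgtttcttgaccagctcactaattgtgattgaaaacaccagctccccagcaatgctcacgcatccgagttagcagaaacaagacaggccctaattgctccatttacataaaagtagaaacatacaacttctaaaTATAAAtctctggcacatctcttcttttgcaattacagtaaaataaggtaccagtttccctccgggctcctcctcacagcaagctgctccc
Inhbb, chr1:119422249-119422498, minus strand: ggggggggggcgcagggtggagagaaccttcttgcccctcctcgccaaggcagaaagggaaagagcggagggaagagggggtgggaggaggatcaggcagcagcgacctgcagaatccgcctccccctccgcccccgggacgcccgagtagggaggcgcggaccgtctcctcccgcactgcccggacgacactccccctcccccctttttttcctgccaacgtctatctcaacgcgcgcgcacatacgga
Fstl3, chr10:79777024-79777271, plus strand: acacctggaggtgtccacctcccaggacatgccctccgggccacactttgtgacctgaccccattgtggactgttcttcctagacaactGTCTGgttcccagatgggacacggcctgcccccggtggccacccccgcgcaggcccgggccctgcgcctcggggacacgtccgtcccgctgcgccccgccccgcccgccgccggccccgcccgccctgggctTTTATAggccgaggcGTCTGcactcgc
RefSeq promoter windows, from 250 bases before to 50 bases after the start, were found for 9 of the 10 members (all but Fst), with 10 windows in all because Gdf15 had 2. Both strands were searched for the SMAD-binding element GTCTAGAC, the 5-base SMAD core CAGAC, the AP-1 site TGANTCA, the TATA box TATAAA, the E-box CACGTG and the ATF4 composite core TGATGNAA. None of these strings contains another. In the Inhba window, TATAAA was the only match. The Inhbb window held no match, which says only that these letters are not in it. In the Fstl3 window, CAGAC matched at 2 places and TATAAA at 1, all on the minus strand, where they read as GTCTG and TTTATA in the printed sequence. CAGAC was also matched in windows of Acvr2a, Acvr2b and Gdf15, and CACGTG in windows of Acvr1b and Gdf15. Among all 32851 windows of the table, 49.6% held CAGAC, 13.6% TATAAA, 7.15% CACGTG, 7.81% TGANTCA, 3.97% TGATGNAA and 0.213% GTCTAGAC. A match is a string of letters and was not tested as a binding site.

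The libraries held between 35118344 and 43796260 counted reads, with a median of 39295667, and within groups the mean correlation between replicates was between 0.971 and 0.989. In the check of the targeted gene, Nox4 had 203 to 398 reads in WT control and 1314 to 2471 in WT TGF-β2, against 102 to 207 in Nox4 KO control and 782 to 1175 in Nox4 KO TGF-β2. Gene-level counts do not separate reads inside the deleted part of Nox4 from those outside it. The fitted ratio of Nox4 KO to WT was 0.5 in control, where the groups overlapped, and 0.445 after TGF-β2, where they did not, and neither passed (edgeR adjusted p = 0.83 and 0.835). All 10 fibroblast markers, among them Col1a1 and Pdgfra, were at or above 1 RPKM (counted reads scaled to exon length and to the total of the library) in every group, with summed levels of 8500 to 9770 in the control and 5860 to 7250 in the TGF-β2 libraries. With TGF-β2, mean Pdgfra went from 39.9 to 3.79 RPKM in WT and from 27.7 to 3.31 in Nox4 KO. Mean Col1a1 went from 2310 to 2130 and from 2540 to 2330 RPKM, and Col3a1 and S100a4 were lower in both genotypes. None of the 7 keratinocyte markers reached 1 RPKM in any group. The 6 adipocyte markers summed to 19.6 to 28.3 RPKM in WT control, 5.92 to 10.2 in WT TGF-β2, 8 to 16 in Nox4 KO control and 3.06 to 5.86 in Nox4 KO TGF-β2, most of it Lpl, while Adipoq stayed between 0 and 0.233 RPKM in all libraries. The 7 myeloid markers summed to 12.7 to 114 RPKM, with ranges that overlapped between the groups, most of it Lyz2. Ptprc was at most 0.43 and Itgam at most 0.725 RPKM, while Adgre1, Csf1r, Cd68 and Tyrobp reached 3.89, 4.54, 6.18 and 7.23 RPKM. Of the 7, 5 had a mean of at least 1 RPKM in every group but Nox4 KO TGF-β2, where 4 did. The 6 skeletal muscle markers summed to 42 to 110 RPKM in the control and 256 to 615 in the TGF-β2 libraries, nearly all of it the actin gene Acta1, while Myod1 was at most 0.04 and Myog at most 0.0184 RPKM. The 5 endothelial markers summed to 2.53 to 4.29 RPKM in WT control against 1.68 to 2.45 in WT TGF-β2 and to 3.04 to 5.54 against 2.42 to 2.94 in Nox4 KO, and the 6 Schwann cell and melanocyte markers to 1.67 to 2.11 against 1.31 to 1.51 and to 1.72 to 2.13 against 1.15 to 1.23, with no overlap between control and TGF-β2. Among the endothelial markers Kdr was the highest, with group means of 1.66 to 3.25 RPKM, and Tek reached 1.04 RPKM. Pecam1 and Cdh5 were at most 0.133 and 0.0946 RPKM. Of the Schwann cell and melanocyte markers, Mitf reached 1.27 RPKM and Sox10 was at most 0.244. These sums moved between groups or libraries beside the values below, and their part in the results was not tested. In bulk RNA, fewer cells of a type and less RNA per cell cannot be told apart.

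TGF-β2 changed most of these genes, and among the ligands, the antagonists and the type I receptors there was in WT a member that rose beside a member that fell. In Nox4 KO the same held for the ligands and the type I receptors, while no antagonist passed as lower in the fit without replicate numbers. With a term for the replicate number, Fst passed as lower there too (log2 fold change −0.67 ± 0.09, edgeR adjusted p = 0.00317). "Passed" below means an adjusted p under 0.05 in edgeR's quasi-likelihood test, at any fold, on the 6 libraries of the comparison and adjusted over all genes tested. Of the 9 members expressed highly enough to be tested, 3 rose and 5 fell in WT, where 10.6% of the 10743 genes tested rose and 12.3% fell. In Nox4 KO the same comparison gave 3 members that rose and 4 that fell, where 15.2% of 10809 genes rose and 15.0% fell. WT control and WT TGF-β2 libraries did not overlap for any of the 9, a pattern that 45.2% of all tested genes shared, and in Nox4 KO 8 of the 9 did not overlap, against 48.5% of genes. The median log2 fold change of the members was −0.71 in WT and −0.48 in Nox4 KO, beside −0.00 and −0.01 over all genes tested. With a term for the replicate number, which paired the Nox4 KO libraries, 5 members fell in Nox4 KO in place of 4, and the calls over all genes went from 1644 higher and 1626 lower to 2714 higher and 3118 lower.

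**Figure D1:**
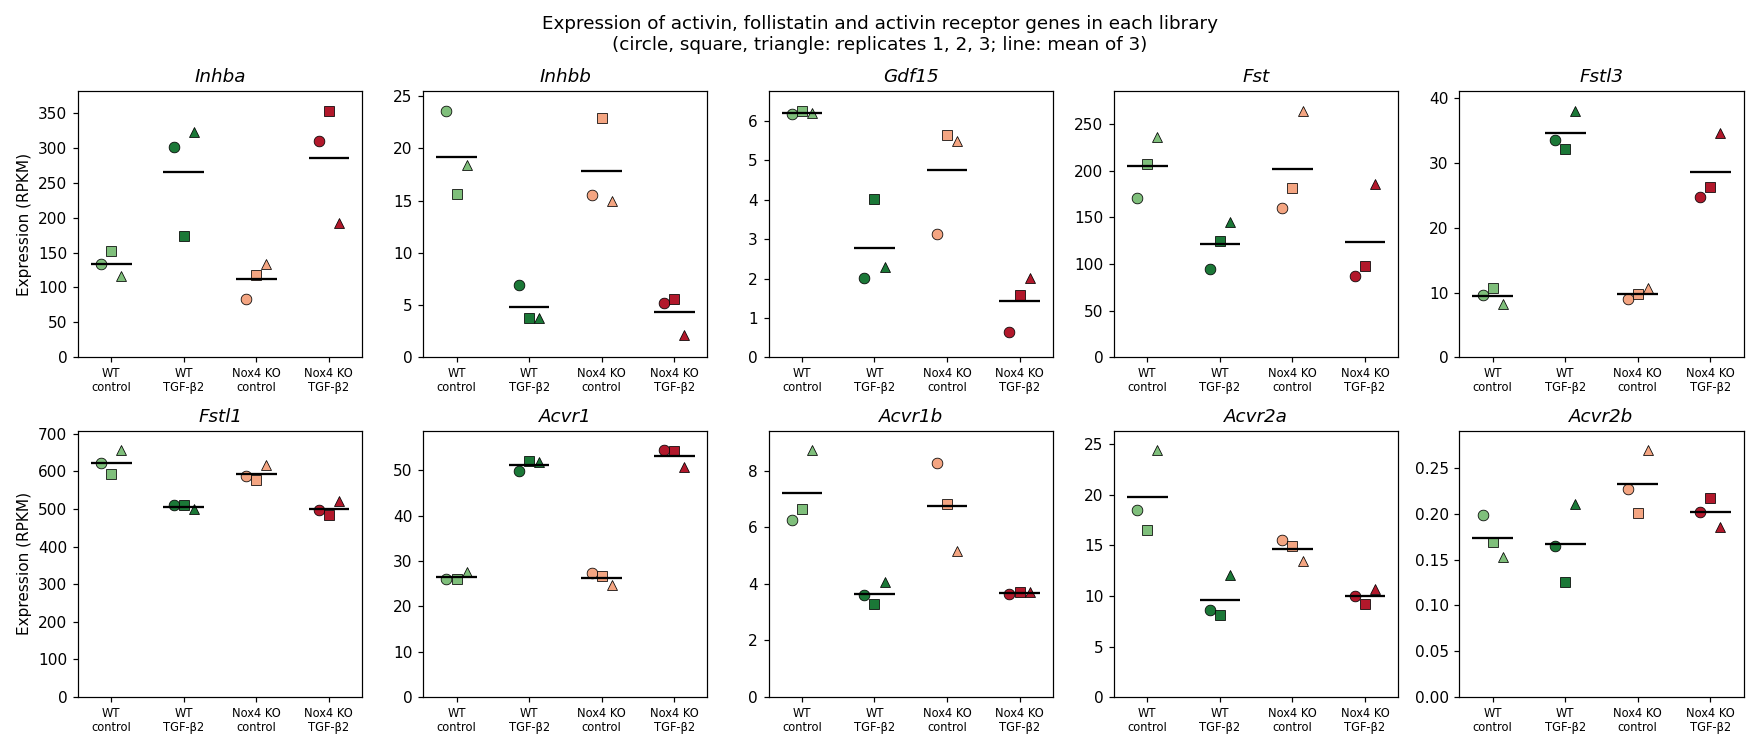
Expression of each of the 10 genes in RPKM (vertical axes, starting at 0) in the 12 libraries, by group (horizontal axes). Circles, squares and triangles are replicates 1, 2 and 3 and lines are means of 3. Inhba, Fstl3 and Acvr1 sit higher in the TGF-β2 libraries of both genotypes, Inhbb, Gdf15, Acvr1b and Acvr2a sit lower, and Fst overlaps between the Nox4 KO groups because replicate 3 reached 186 RPKM after TGF-β2.

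**Figure D2:**
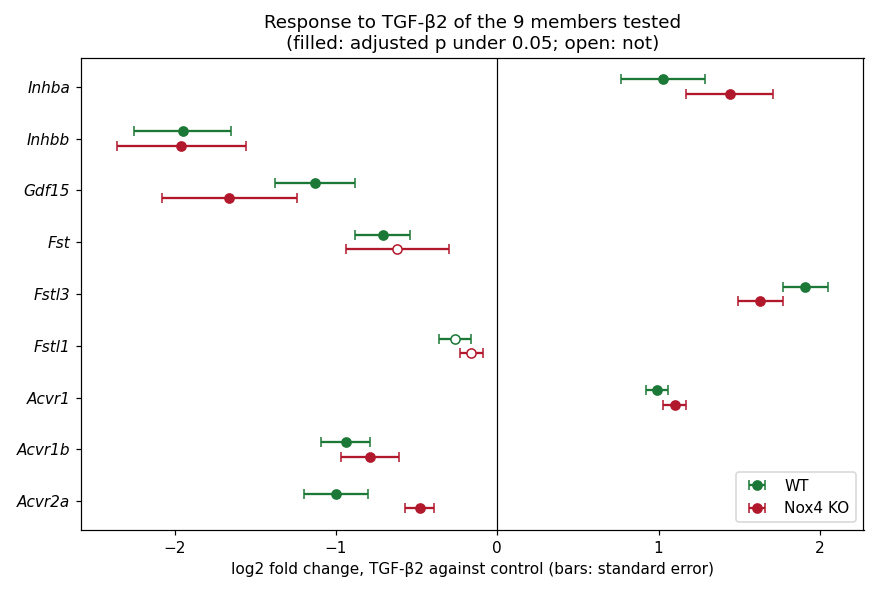
Log2 fold change of TGF-β2 against control (horizontal axis) for the 9 members tested (vertical axis), in WT (green) and Nox4 KO (red), with bars for the standard error. Filled points passed at an adjusted p under 0.05. Open points, Fst in Nox4 KO and Fstl1 in both genotypes, did not.

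The ligand gene Inhba (ENSMUSG00000041324, chr13:16011851-16031621, plus strand) encodes the beta A subunit, and it rose in both genotypes. Its levels in replicates 1, 2 and 3 were 133, 152 and 116 RPKM in WT control and 301, 173 and 323 RPKM in WT TGF-β2. In Nox4 KO they were 83.2, 118 and 134 RPKM in control and 309, 353 and 193 RPKM after TGF-β2. Within a genotype no stimulated library was as low as any control library, though replicate 2 of WT TGF-β2 and replicate 3 of Nox4 KO TGF-β2 stood well below the others of their group. The change was 1.03 ± 0.26 (log2 fold change, SE) in WT, a 2.05-fold rise with adjusted p = 0.0312, and 1.44 ± 0.27 in Nox4 KO, a 2.71-fold rise with adjusted p = 0.0137. The WT call rested on all libraries but replicate 2 of WT TGF-β2: without any other single library the adjusted p was between 0.0658 and 0.11 at changes of 0.87 to 1.17. In Nox4 KO it was lost only without replicate 2 of the TGF-β2 group (1.25, adjusted p = 0.054).

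Inhbb (ENSMUSG00000037035, chr1:119415465-119422248, minus strand), which encodes the beta B subunit, moved the other way. In WT its levels were 23.6, 15.6 and 18.4 RPKM in control and 6.93, 3.76 and 3.73 RPKM after TGF-β2. The Nox4 KO libraries held 15.5, 22.9 and 15.0 RPKM in control and 5.24, 5.62 and 2.12 RPKM after TGF-β2. No stimulated library reached the lowest control library of its genotype. Inhbb fell by 1.95 ± 0.30 on the log2 scale in WT (3.87-fold, adjusted p = 0.006) and by 1.96 ± 0.40 in Nox4 KO (3.88-fold, adjusted p = 0.0164), the second call being lost without replicate 2 of Nox4 KO control (−1.71, adjusted p = 0.0534). The ratio of Inhba to Inhbb, both per length, was 5.16 to 9.78 in the 6 control libraries and 43.5 to 91.1 in the 6 stimulated ones. Inhbb thus made up 9.28% to 16.2% of the summed RPKM of both genes in control and 1.09% to 2.25% after TGF-β2, values given without a test.

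Gdf15 (ENSMUSG00000038508, chr8:70629393-70632456, minus strand) was the lowest of the ligand genes in control. It was at 6.18, 6.26 and 6.20 RPKM in WT control and at 2.01, 4.02 and 2.29 RPKM in WT TGF-β2. In Nox4 KO it was at 3.13, 5.65 and 5.50 RPKM in control and at 0.654, 1.58 and 2.02 RPKM after TGF-β2, the last from 52 to 158 reads a library. The 3 WT control libraries were nearly equal, and the groups did not overlap in either genotype. Gdf15 fell by 1.13 ± 0.25 on the log2 scale in WT (2.19-fold, adjusted p = 0.02) and by 1.66 ± 0.42 in Nox4 KO (3.16-fold, adjusted p = 0.0314). These were among the calls that depended on single libraries. The WT call was lost without any of the 3 control libraries or without replicate 1 of the TGF-β2 group (adjusted p of 0.0538 to 0.0614), and the Nox4 KO call without replicate 2 or 3 of control or replicate 2 of the TGF-β2 group (adjusted p of 0.071 to 0.0985).

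Among the antagonists, follistatin (Fst, ENSMUSG00000021765, chr13:114452290-114458951, minus strand) was lower after TGF-β2 while Fstl3 was higher. Fst was at 171, 207 and 236 RPKM in WT control and at 95.0, 125 and 145 RPKM in WT TGF-β2. In Nox4 KO, control libraries were at 160, 181 and 264 RPKM and stimulated ones at 86.7, 98.2 and 186 RPKM. Within each replicate number the stimulated library was below the control library in both genotypes, but replicate 3 of Nox4 KO TGF-β2 lay above replicates 1 and 2 of Nox4 KO control. The fall of 0.71 ± 0.17 (log2) passed in WT (adjusted p = 0.0282). In Nox4 KO the difference was −0.62 ± 0.32 (adjusted p = 0.192) and did not pass, and with the replicate number as a block it was −0.67 ± 0.09 and passed (adjusted p = 0.00317). Without the block and without replicate 3 of Nox4 KO TGF-β2 the difference was −1.03 (adjusted p = 0.0229). Without any other single library it was between −0.76 and −0.40 and did not pass (adjusted p of 0.198 to 0.426). The WT call was lost without replicate 2 or 3 of control or replicate 1 of the TGF-β2 group (adjusted p of 0.0796 to 0.0993) and with all 12 libraries in the fit (0.0755).

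Fstl3 (ENSMUSG00000020325, chr10:79777272-79782630, plus strand) rose in both genotypes, with replicates closer together than those of Inhba. Its levels were 9.64, 10.7 and 8.18 RPKM in WT control and 33.6, 32.2 and 38.1 RPKM after TGF-β2. The Nox4 KO values were 8.99, 9.83 and 10.7 RPKM in control and 24.8, 26.3 and 34.7 RPKM after TGF-β2. The lowest stimulated library of the study, at 24.8 RPKM, was thus above the highest control library, at 10.7 RPKM. The rise was 1.91 ± 0.14 (log2, 3.75-fold, adjusted p = 0.000633) in WT and 1.63 ± 0.14 (3.09-fold, adjusted p = 0.00235) in Nox4 KO, and it passed without any single library. Its exons share 1157 bases with Prss57 on the other strand, which had 0 to 4 reads per library. Fstl3 stayed the less abundant antagonist: its share of the summed RPKM of Fst and Fstl3 was 3.35% to 5.34% in control and 15.8% to 26.1% after TGF-β2.

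Fstl1 (ENSMUSG00000022816, chr16:37776873-37836514, plus strand) was the most abundant member in every library and ranked 51 to 65 among all genes by mean RPKM in the 4 groups. It was at 623, 592 and 656 RPKM in WT control, 511, 510 and 499 RPKM in WT TGF-β2, 588, 577 and 617 RPKM in Nox4 KO control and 497, 485 and 522 RPKM in Nox4 KO TGF-β2. The stimulated libraries were below all control libraries of their genotype, by a small margin compared with the other members. The differences of −0.26 ± 0.10 in WT (adjusted p = 0.115) and −0.16 ± 0.07 in Nox4 KO (adjusted p = 0.145) on the log2 scale did not pass. With DESeq2 they did (adjusted p = 0.00207 and 0.00328), and so did the WT difference with all 12 libraries in the edgeR fit (0.0275).

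Set against the ligand, Fst was lower relative to Inhba in every stimulated library than in any control library of its genotype. The ratio of Fst to Inhba in RPKM was 1.29 to 2.04 in WT control and 0.315 to 0.722 in WT TGF-β2, and 1.53 to 1.97 in Nox4 KO control and 0.279 to 0.963 in Nox4 KO TGF-β2. On the log2 scale the group means were 0.61 ± 0.36 and −1.10 ± 0.60 in WT and 0.85 ± 0.20 and −1.24 ± 1.03 in Nox4 KO (SD, n = 3). Which of the pair was the more abundant in control depends on the exon lengths used. With the exons of protein-coding transcripts every control library was above 0, whereas with the exons of all transcripts WT control replicates 1 and 2 were at −0.11 and −0.03 and replicate 3 at 0.55 (means 0.14 in WT and 0.37 in Nox4 KO). All stimulated libraries were below 0 with both. The ratio of Fst to Fstl3 went from 17.7 to 28.8 in control to 2.82 to 5.35 after TGF-β2. The ratio of Fstl3 to Inhba went the other way in WT, from 0.07 to 0.0727 in control to 0.112 to 0.186 after TGF-β2, and overlapped in Nox4 KO (0.0795 to 0.108 in control and 0.0746 to 0.18 after TGF-β2, the highest value being that of replicate 3). These ratios describe transcripts and were not tested.

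**Figure D3:**
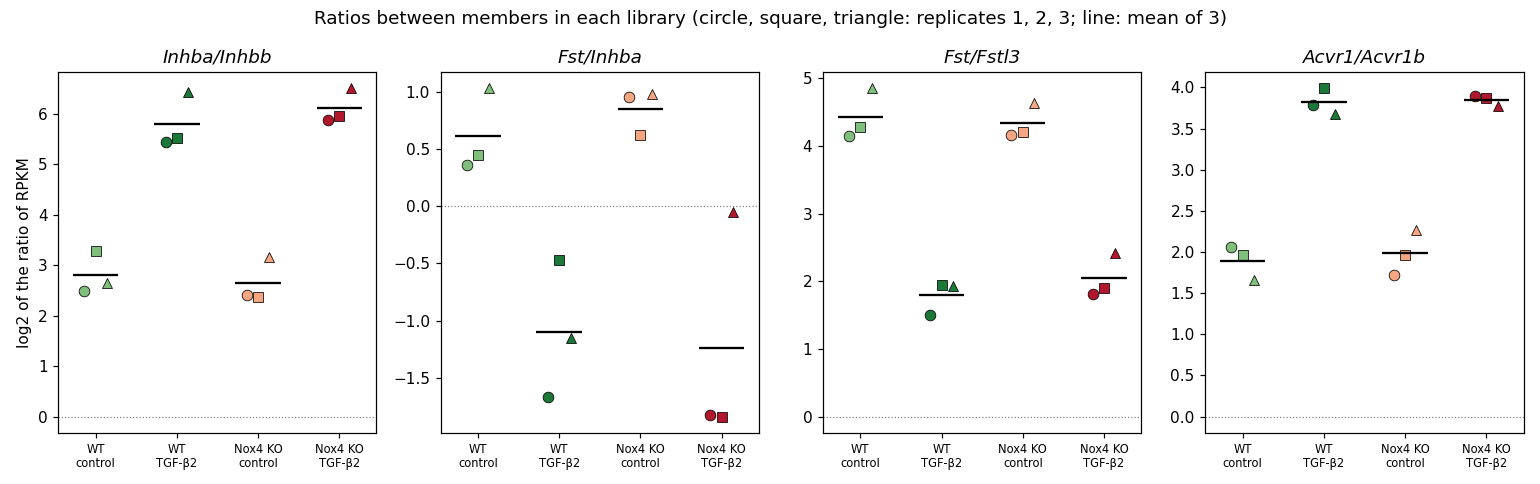
Log2 ratio of the RPKM of 2 members (vertical axes, each with its own range) in the 12 libraries by group (horizontal axes), with symbols for replicates 1, 2 and 3, a line for the mean of 3 and a dotted line at equal levels. Inhba/Inhbb and Acvr1/Acvr1b are higher and Fst/Inhba and Fst/Fstl3 lower in all stimulated libraries. Levels are per length of the exons of protein-coding transcripts, and with the exons of all transcripts Fst/Inhba lies at −0.11 and −0.03 in WT control replicates 1 and 2.

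The type I receptors also moved apart. Acvr1 (ENSMUSG00000026836, chr2:58388644-58567157, minus strand), the receptor of the BMP branch, was at 26.0, 26.1 and 27.5 RPKM in WT control and at 49.8, 52.1 and 51.8 RPKM in WT TGF-β2. In Nox4 KO it was at 27.3, 26.7 and 24.8 RPKM in control and at 54.4, 54.2 and 50.8 RPKM after TGF-β2. Its replicates were the closest of the 3 members that rose, and the groups lay far apart. Acvr1 rose by 0.99 ± 0.07 on the log2 scale in WT (1.99-fold, adjusted p = 0.000558) and by 1.10 ± 0.07 in Nox4 KO (2.15-fold, adjusted p = 0.00122), and passed without any single library.

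Acvr1b (ENSMUSG00000000532, chr15:101174067-101213684, plus strand), which encodes the activin type I receptor also called ALK4, fell. It was at 6.25, 6.65 and 8.71 RPKM in WT control and at 3.59, 3.27 and 4.05 RPKM in WT TGF-β2. The Nox4 KO libraries were at 8.26, 6.83 and 5.16 RPKM in control and converged on 3.64, 3.71 and 3.70 RPKM after TGF-β2. In both genotypes the control libraries spread more widely than the stimulated ones and did not overlap with them. The fall was 0.94 ± 0.15 (adjusted p = 0.00657) in WT. It was 0.79 ± 0.18 in Nox4 KO (adjusted p = 0.022), where the call was lost without replicate 1 or 2 of either group (adjusted p of 0.0507 to 0.0804). Acvr1 exceeded Acvr1b by 3.16 to 4.81 times in the control libraries and by 12.8 to 15.9 times in the stimulated ones, on the RPKM scale.

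Of the type II receptors, Acvr2a (ENSMUSG00000052155, chr2:48814109-48903269, plus strand) was the one above the minimum of 1 RPKM, and it fell. Its levels were 18.5, 16.5 and 24.4 RPKM in WT control, 8.57, 8.14 and 12.1 RPKM in WT TGF-β2, 15.5, 14.9 and 13.5 RPKM in Nox4 KO control and 9.97, 9.20 and 10.7 RPKM in Nox4 KO TGF-β2. All stimulated libraries were below all control libraries, and Nox4 KO control lay between WT control and the stimulated groups. Acvr2a fell by 1.00 ± 0.20 on the log2 scale in WT (adjusted p = 0.013) and by 0.48 ± 0.09 in Nox4 KO (adjusted p = 0.0123). The WT call was lost without replicate 3 of control or replicate 1 of the TGF-β2 group (adjusted p = 0.0511 and 0.0586), and the Nox4 KO call without replicate 2 of the TGF-β2 group (0.0556) or with all 12 libraries in the fit (0.0754). Its exons share 446 bases with Orc4 on the other strand, which was at 8.03 to 10.2 RPKM. Whether the counting used strand is not stated, so reads in the shared bases cannot be assigned.

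Acvr2b (ENSMUSG00000061393, chr9:119402118-119434995, plus strand), the other type II receptor, was the lowest of the members in every library. Its levels were 0.199, 0.169 and 0.153 RPKM in WT control, 0.165, 0.126 and 0.211 RPKM in WT TGF-β2, 0.227, 0.201 and 0.269 RPKM in Nox4 KO control and 0.202, 0.217 and 0.186 RPKM in Nox4 KO TGF-β2, from 17 to 35 reads a library. It missed the minimum of 1 RPKM and was compared on its own, on log2(CPM + 0.5), with two-sided exact permutation tests that cannot go below p = 0.1 with 3 libraries against 3. TGF-β2 against control gave −0.04 (exact p = 0.9) in WT and −0.12 (exact p = 0.3) in Nox4 KO. The test could not call a change of any size.

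In order of mean RPKM (± SD, n = 3), WT control fibroblasts expressed Fstl1 (623.6 ± 32.32), Fst (204.7 ± 32.66), Inhba (133.6 ± 18.17), Acvr1 (26.54 ± 0.8258), Acvr2a (19.81 ± 4.1), Inhbb (19.19 ± 4.072), Fstl3 (9.492 ± 1.241), Acvr1b (7.202 ± 1.323), Gdf15 (6.214 ± 0.04083) and Acvr2b (0.1736 ± 0.02363). In this order Acvr2a and Inhbb, Fstl3 and Acvr1b, and Acvr1b and Gdf15 overlapped between libraries, and the other neighbours did not. After TGF-β2 the WT order was Fstl1, Inhba, Fst, Acvr1, Fstl3, Acvr2a, Inhbb, Acvr1b, Gdf15 and Acvr2b. The rank of Inhba among all genes by mean RPKM moved from 314 to 135 in WT and from 407 to 108 in Nox4 KO, and that of Fstl3 from 5323 to 1769 and from 5328 to 2061. Inhbb went from rank 3050 to 7211 in WT and from 3313 to 7549 in Nox4 KO.

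For each member that passed with at least a 2-fold change in both genotypes, the genes with the most similar pattern were taken by Pearson's r of log2(CPM + 0.5) over the 12 libraries, among 10890 genes. The libraries share their 4 groups and the stimulation, so these values describe the pattern and carry no p. For Inhba they were Ssh1 (0.985), Fbxo30 (0.972) and Crk (0.972). For Inhbb they were Pde3a (0.978), Snai2 (0.970) and Fgf7 (0.964). Fstl3 was most like Nop2 (0.984), Slc7a7 (0.982) and Tmcc2 (0.977), and Gdf15 most like En1 (0.975), Dusp1 (0.971) and Tmem38b (0.970).

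To see what loss of Nox4 did to these genes, Nox4 KO was compared with WT within each condition. No member passed in control, where 0% of 10767 genes passed, or after TGF-β2, where 0% of 10439 did (edgeR, smallest adjusted p over all genes 0.42 and 0.358). At an unadjusted p under 0.05 there were 596 and 336 genes, with 1 and 0 members among them. DESeq2 called 9 higher and 19 lower in control and 8 higher and 8 lower after TGF-β2, none of them a member. These comparisons use the same libraries as the comparisons of TGF-β2 with control and are not independent of them.

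Acvr2a was the member with the smallest p in control. The 3 Nox4 KO control libraries, at 13.5 to 15.5 RPKM, were all below the 3 WT control libraries, at 16.5 to 24.4 RPKM, a difference of −0.47 ± 0.14 on the log2 scale (95% interval −0.80 to −0.13, unadjusted p = 0.0137, adjusted p = 0.83) that did not pass. It was −0.32 without replicate 3 of WT control. Gdf15 also did not overlap in control, with all Nox4 KO libraries lower (−0.42 ± 0.22, interval −0.96 to 0.11, adjusted p = 0.83), and −0.20 without replicate 1 of Nox4 KO control. Among the tested members these were 2 of 9, where 13.6% of all tested genes did not overlap. Acvr2b, outside the test, was higher in all 3 Nox4 KO control libraries (0.25 on log2(CPM + 0.5), exact permutation p = 0.1, the smallest possible). The summed adipocyte markers given above did not overlap between the same groups either, and their part in these values was not tested.

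The other members differed between the genotypes in control by between −0.30 (Inhba, 95% interval −0.77 to 0.17) and 0.01 (Fstl3, −0.30 to 0.32) on the log2 scale, with overlapping libraries. The narrowest interval was that of Acvr1, −0.20 to 0.09. After TGF-β2 none of the 9 members had groups that did not overlap, against 10.1% of the genes tested. Gdf15 was lowest in Nox4 KO relative to WT there (−0.94 ± 0.43, interval −1.96 to 0.08, unadjusted p = 0.0658, adjusted p = 0.835), with a single Nox4 KO library, at 2.02 RPKM, above the lowest WT library, at 2.01 RPKM. With single libraries left out, this Gdf15 difference was between −1.27 and −0.59. Inhba differed by 0.11 (−0.65 to 0.87), Fst by 0.04 (−0.68 to 0.76) and Fstl3 by −0.26 (−0.62 to 0.10), so that differences of these sizes were not separable from the spread between libraries.

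Whether TGF-β2 acted differently in the genotypes was tested by the interaction over all 12 libraries. No member passed, and 0% of 10890 genes did (edgeR, smallest adjusted p 0.85, 290 genes and 1 member at an unadjusted p under 0.05, 6 genes and no member with DESeq2). The member was Acvr2a, whose fall was smaller in Nox4 KO by 0.54 ± 0.24 on the log2 scale (interval 0.02 to 1.06, unadjusted p = 0.0434, adjusted p = 0.85). For Inhba the difference between the responses was 0.41 ± 0.41 (−0.49 to 1.31), for Inhbb 0.01 ± 0.53 (−1.16 to 1.17), for Fst 0.11 ± 0.40 (−0.77 to 0.98) and for Fstl3 −0.27 ± 0.21 (−0.73 to 0.19). Acvr1 again had the narrowest interval of the members whose response passed in both genotypes (0.13 ± 0.09, −0.07 to 0.32).

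Of 17 other ligands of the activin and BMP branches in the table, 5 were expressed highly enough to be tested (Bmp1, listed with them by its name, encodes a protease and was left out of these counts), and Gdf11, a close relative of myostatin, was the one that passed in both genotypes (−0.75 ± 0.08 in WT and −0.52 ± 0.07 in Nox4 KO, log2, adjusted p = 0.00197 and 0.00569). In WT 1 rose and 2 fell, and in Nox4 KO none rose and 2 fell. Beside these counts and those of the lists below, 10.6% of all genes tested rose and 12.3% fell in WT. In Nox4 KO the shares were 15.2% and 15.0%. Inha, whose product joins a beta subunit to form inhibin, differed by −0.23 (adjusted p = 0.549) in WT and −0.63 (adjusted p = 0.194) in Nox4 KO and did not pass. Among 8 genes of TGF-β ligands and latency proteins, 3 rose and none fell in each genotype: Tgfb1 (2.12 ± 0.26 and 1.69 ± 0.48) and the latency proteins Ltbp2 (1.26 ± 0.20 and 1.46 ± 0.24) and Ltbp4 (1.18 ± 0.21 and 1.03 ± 0.08). Of 9 other receptors and co-receptors tested, none rose and 2 fell in WT and 2 rose and 1 fell in Nox4 KO. Tgfbr3, the co-receptor betaglycan that also binds inhibin, had the lowest values (−3.17 ± 0.19 and −2.84 ± 0.28, log2, adjusted p = 0.000351 and 0.00302).

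Of 9 other extracellular antagonists tested, 2 rose and 3 fell in WT and 1 rose and 3 fell in Nox4 KO. The BMP antagonist Chrd fell in both (−0.63 ± 0.18 and −0.75 ± 0.20). All 16 genes of SMADs and their regulators were tested, and 6 rose while 3 fell in WT, against 7 and 3 in Nox4 KO. The largest changes shared by both genotypes were those of Smad9 (−1.69 ± 0.18 and −1.49 ± 0.36) and the inhibitory Smad6 (−1.20 ± 0.28 and −1.42 ± 0.41), both of the BMP branch, and of the feedback inhibitors Pmepa1 (1.47 ± 0.08 and 1.44 ± 0.17) and Skil (0.74 ± 0.21 and 1.21 ± 0.09). Lower levels were not confined to the BMP branch: mean Smad3 went from 19.6 to 9.02 RPKM in WT and from 19 to 10.8 in Nox4 KO. Smad2 went from 8.14 to 7.23 and from 8.24 to 7.25 RPKM.

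Of 11 known targets of SMAD2 and SMAD3 tested, 6 rose in each genotype and none fell, beside 10.6% and 15.2% of all genes that rose. Ccn2 was among those that rose (1.57 ± 0.23 and 1.59 ± 0.27). The other 5, the same in both genotypes, were Acta2 (0.13 and −0.06), Tagln (0.57 and 0.33), Col1a1 (−0.08 and −0.04), Fn1 (−0.20 and 0.24) and Tgfbi (−0.34 and −0.53), named after their values were seen. The median log2 fold change of this list was 0.74 in WT and 0.81 in Nox4 KO. Of 6 targets of the BMP SMADs tested, 3 fell in WT and 6 in Nox4 KO and none rose, beside 12.3% and 15.0% of all genes that fell. The lowest values were those of Id4 (−2.81 ± 0.18 and −2.96 ± 0.26) and Id2 (−1.84 ± 0.20 and −1.87 ± 0.32), and the list medians were −0.85 and −1.19. Id1 (−0.27, adjusted p = 0.45), Id3 (−0.49, adjusted p = 0.23) and Bambi (−0.10, adjusted p = 0.796) did not pass in WT, and whether WT and Nox4 KO differed in these genes is covered by the interaction, which none passed. Because Gdf15 is a known target of stress pathways, 2 further lists were read beside it. Over all genes tested, 10.6% rose and 12.3% fell in WT, and 15.2% rose and 15.0% fell in Nox4 KO. Of 10 genes of the integrated stress response, 1 rose and 1 fell in WT and 1 rose and 3 fell in Nox4 KO, with Fgf21 higher (3.26 ± 0.28 and 2.98 ± 0.60) and Sesn2 lower (−0.45 ± 0.10 and −0.44 ± 0.08) in both. Of 10 p53 targets, 1 rose and 2 fell in WT and 1 rose and 4 fell in Nox4 KO, with Trp53inp1 (−1.28 ± 0.35 and −0.79 ± 0.19) and Sesn1 (−0.77 ± 0.17 and −0.59 ± 0.12) lower and Plk2 (0.90 ± 0.13 and 0.71 ± 0.15) higher in both. The lists share some genes, with Smad6, Smad7, Skil, Pmepa1, Ltbp2 and Bambi each in 2 of them. No gene of any of these lists passed in the comparisons of Nox4 KO with WT or in the interaction.

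**Figure D4:**
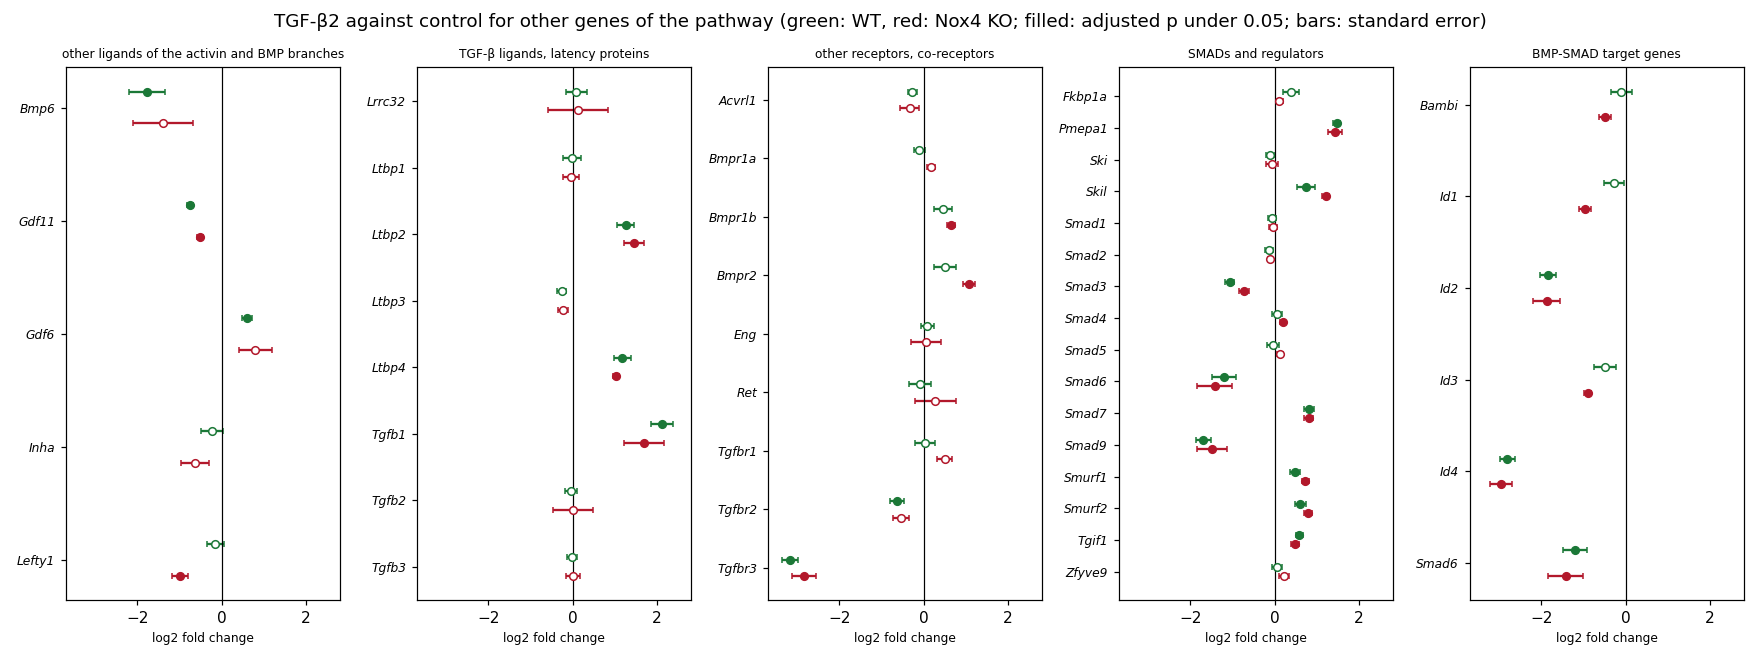
Log2 fold change of TGF-β2 against control (horizontal axes) for the tested genes of 5 lists of the pathway (vertical axes), in WT (green) and Nox4 KO (red), with bars for the standard error and filled points for an adjusted p under 0.05. Tgfbr3 and Id4 lie furthest to the left and Tgfb1 furthest to the right, and the genes called in both genotypes lie on the same side of 0 in both.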

How the data were processed

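RNA of 12 libraries of primary mouse skin fibroblasts, 3 per group, was sequenced by the authors, who mapped single-end reads to GRCm38 with STAR 2.4 (per the labels), discarded reads with several locations and used featureCounts 1.4.6 to count the rest per gene, on the joined exons of its protein-coding isoforms. The deposited values are raw read counts per gene for 21556 genes. Whether strand was used is not given in the sources used here. Groups and replicate numbers came from the labels.

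Genes were matched by Ensembl identifier to GENCODE annotation of GRCm38, and RPKM was computed from the count, the merged exon length (of protein-coding transcripts for 21099 genes) and the library total. Genes with a mean of at least 1 RPKM in at least 1 group of a comparison were tested in R 4.3.3 with edgeR 4.0.16 (quasi-likelihood test, TMM normalization, Benjamini-Hochberg adjustment over all genes tested, limit 0.05), on the 6 libraries of the comparison, or on all 12 for the interaction. Standard errors were derived from the F statistic, and 95% intervals from these and the t quantile at the degrees of freedom of the test. Acvr2b, under this minimum, was compared with exact permutation tests. Ratios were described without a test. The steps were tested on simulated data. Within groups, no pair of libraries differed by as little as sampling noise (chi-square per gene of 14.41 or more).

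Deviations of same-numbered libraries from their group means correlated at 0.763, 0.688 and 0.741 between Nox4 KO control and Nox4 KO TGF-β2, so these numbers were taken to pair the samples. Between WT control and WT TGF-β2 the values were 0.0619, 0.415 and 0.525, and they were not.

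The members and gene lists were chosen with earlier results of these data known. All members are named, and from the other lists the genes that passed in both genotypes with the largest mean change, up to 4 a list, except for some that are not reported here. Alternatives were DESeq2 1.42.0, other normalizations, filters, exon lengths, a 2-fold limit, a replicate block, all 12 libraries in the fit, leaving out each library and, added after seeing the data, library sizes from all counts.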

Additional observations from a re-analysis of the deposited data

How the results depend on the processing

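No member changed direction past the test's threshold under any alternative run. Fstl3 and Acvr1 in both genotypes and Inhbb and Acvr1b in WT passed under every alternative, except that the WT changes of Acvr1 and Acvr1b were under the 2-fold limit. With single libraries left out, the members lower after TGF-β2 numbered 2 to 5 in WT and 1 to 5 in Nox4 KO, and the members higher 2 to 3 in each, the number of libraries being smaller by construction. The lowest counts of lower members came without replicate 3 of WT control or replicate 1 of WT TGF-β2 and without replicate 2 of Nox4 KO control or of Nox4 KO TGF-β2. Requiring a 2-fold change left 3 members lower in WT and 2 in Nox4 KO. The counts with single libraries left out and with the 2-fold limit are given without the share of all genes called under the same setting. They therefore do not compare the members with other genes. With exons of all transcripts, the control means of the log2 ratio of Fst to Inhba were 0.14 (WT) and 0.37 (Nox4 KO), those of Fstl3 to Inhba −4.14 and −3.81. In WT and between genotypes the replicate block changed no member's call (3 higher and 5 lower in WT), and in Nox4 KO it changed that of Fst alone, to −0.67 (adjusted p = 0.00317). Acvr2b rests on 17 to 35 reads a library.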
